A study of Mus musculus with 6 samples.

Results

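The cartilage and bone lineage genes are 10 mouse genes chosen by name: the transcription factors Runx1, Runx2, Runx3 and Sp7, the cartilage matrix genes Acan, Comp and Matn2, and the mineralization genes Alpl, Ibsp and Mgp. Their probe sets, the groups of short oligonucleotides by which an Affymetrix array measures a transcript, were found by gene symbol. Of the 10 genes 9 had a named probe set, 17 probe sets in all, of which 15 were among the 22626 of the MOE430A array and 2 among the 22511 of the MOE430B array. No level of Runx2 was analysed here. The cells were DR4 embryonic fibroblasts, from mouse embryos of day 15 per the labels, which serve as a feeder layer for embryonic stem cells and were profiled for comparison with stem cells of the J1, R1 and V6.5 lines. DR4 mice are known to carry several drug resistance genes. The labels give no further genotype, sex or treatment, and do not say whether embryos were pooled. All samples form 1 group, with 3 replicates on each array type and no treated or untreated counterpart. The culture medium, shared by all, was D-MEM containing 15% serum and the cytokine LIF, which keeps mouse stem cells undifferentiated, on 0.1% gelatin at 37 C and 5% CO2. In the labels' notation, the RNA of replicate 1 came from 12x10e6 cells and was at 2.4 ug/ul, while that of the other two came from 3x10e6 cells and was at 3.0 ug/ul.

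Cartilage and bone both arise from mesenchyme, the loose connective tissue of the embryo that also gives rise to fibroblasts. Runx proteins bind DNA together with the partner Cbfb. Runx2 commits cells to bone and Sp7 (osterix) acts after it, while Runx1 and Runx3 are best known from blood cells, nerve cells and growing cartilage. Chondrocytes secrete aggrecan (Acan) and collagen II. Osteoblasts make alkaline phosphatase (Alpl) and bone sialoprotein (Ibsp), which promote mineral, and matrix Gla protein (Mgp) holds mineral back in cartilage and vessel walls.

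Of the 9 measured genes, 1 was bright and most were dim. Mgp gave 42311 to 59863 on the 3 arrays. Sp7 and Runx1 lay modestly above the array's median signal, and Acan, Comp, Matn2, Alpl, Ibsp and Runx3 did not lie above it on every array. Values are MAS5 signal intensities, the vendor's summary of a probe set on a linear scale, given as replicates 1, 2 and 3 in that order or as mean ± SD (n = 3 arrays). The array's median served as a floor, and was 689, 685 and 734 on MOE430A and 849, 917 and 907 on MOE430B. A gene counted as above the floor when at least 1 probe set for it exceeded the median on all 3 arrays of a type. By this rule 3 of 9 member genes were above the floor on MOE430A, beside 50.0% of the 12393 genes with 1 symbol there, and 0 of 2 on MOE430B, beside 50.8% of 9607. Counted as probe sets on MOE430A, 4 of 15 were above the floor on all 3 arrays, beside 42.4% of all probe sets, 7 were above it on none, and 4 on 1 or 2 arrays. On MOE430B it was 0 of 2 probe sets, beside 37.2%. The median of the members' mean percentile ranks was 41.5 on MOE430A, against 49.2 over all probe sets. Without replicate 1 the count of genes was 5 on MOE430A, by Comp and Matn2, and 1 on MOE430B, by Runx1. A rule over 2 arrays is easier for any gene to pass, and its share over all genes was not computed. Only Mgp was above the 75th percentile of its arrays, and 8 of 9 genes were above a fixed signal of 200. Each probe set hybridizes with its own strength, so a brighter probe set does not mean a more abundant transcript.

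**Figure D1:**
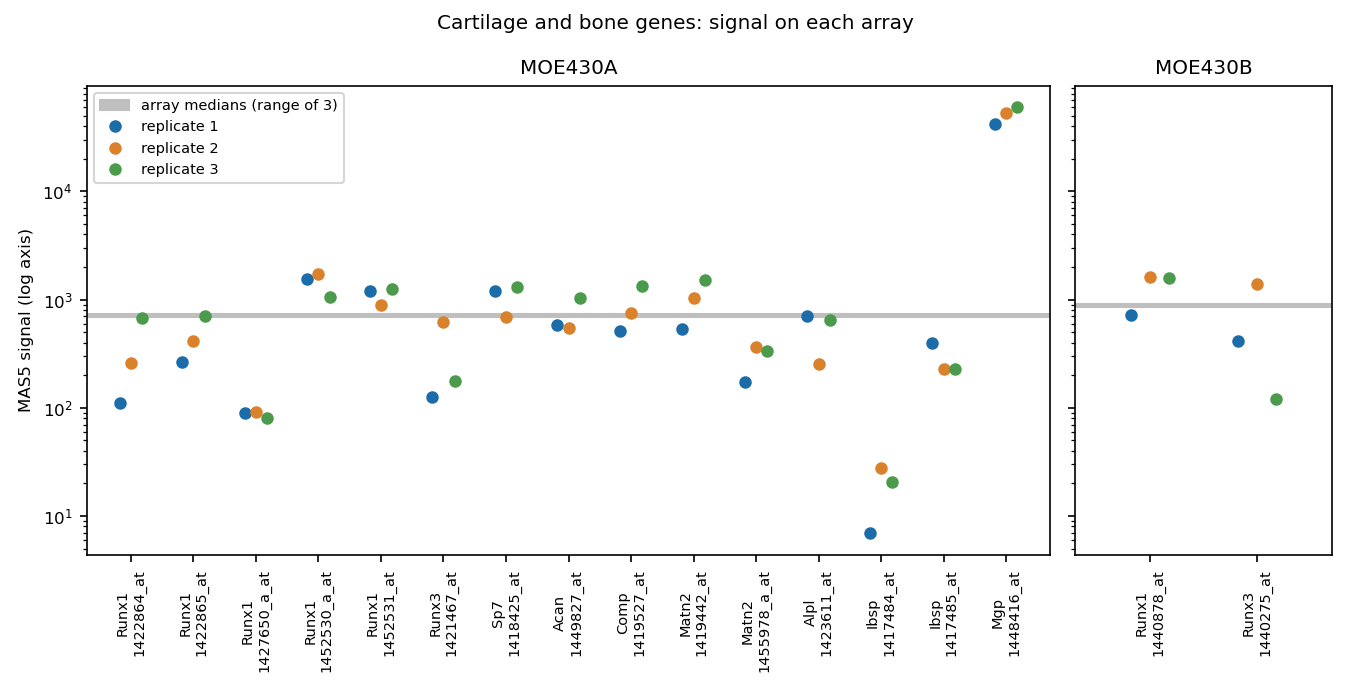
MAS5 signal (log axis) of each of the 17 member probe sets in replicates 1, 2 and 3, with MOE430A on the left and MOE430B on the right. The grey band spans the medians of the 3 arrays. On MOE430A Mgp stands far above the band, 2 Runx1 probe sets stand modestly above it, and both Ibsp probe sets and Runx3 stand below it. Sp7 stands above the band in replicates 1 and 3 and inside it in replicate 2.

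Among the transcription factors, the Runx genes share a sequence feature that the choice of members did not use. RefSeq promoter windows on GRCm38.p6, from 250 bases before to 50 after each transcript start, were held for 6 of the 10 members (9 windows). The letters AACCACA, which contain the core that Runx proteins bind, were searched on both strands. They were in 3 of these 9 windows, beside 5.27% of all 32851 windows, and all 3 belonged to Runx genes. In each of them the letters occurred as a pair with 1 base between the copies. The pair lies in the longest run that windows of Runx1, Runx2 and Runx3 share, the 18 bases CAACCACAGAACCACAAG, a search added after the windows were read. This run was in 4 of the 32851 windows, those of the 3 Runx genes and that of Gm16225, whose window overlaps that of Runx3 on the other strand. The stretches are shown because they are what the 3 family members have in common at a start site, with both copies in capitals. They run 5′ to 3′ on the gene's strand, and lie at chr16:92826025-92826054 (minus strand), chr17:44814583-44814612 (minus strand) and chr4:135120503-135120532 (plus strand).
Runx1: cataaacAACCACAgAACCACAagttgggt
Runx2: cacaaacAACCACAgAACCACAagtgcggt
Runx3: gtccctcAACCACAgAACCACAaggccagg
The first copy begins at base 28 of the Runx1 transcript and at base 23 of the Runx2 transcript, and 135 bases before the annotated start of Runx3. Runx2 held a further copy of the short letters. The second window of Runx1, that of Runx3, both windows of Alpl and those of Acan and Ibsp held none. No binding was measured in these samples, so a match is a description of letters.

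Runx1, a regulator of blood stem cells that is also present in mesenchyme, was measured by 5 MOE430A probe sets that did not agree. Probe set 1452530_a_at gave 1534, 1719 and 1050.2, and 1452531_at, from the same source sequence, gave 1203, 900 and 1242. Both were above the floor on all 3 arrays. The pair 1422864_at and 1422865_at, from another source sequence, was below the floor on every array, with 112, 260 and 683 for the first and 263, 411 and 712 for the second. In both of these replicate 1 was lowest and replicate 3 highest. The fifth, 1427650_a_at, stayed far below the floor and hardly varied, at 90.3, 91.8 and 80.1. The single MOE430B probe set, 1440878_at, gave 722, 1603 and 1569, with replicate 1 below the floor and the other 2 above it. Whether these probe sets see different transcript ends or forms of Runx1 was not tested.

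Runx3, known from sensory neurons and T cells, was not above the floor on all arrays of either type. Its MOE430A probe set gave 125, 620.3 and 176, and its MOE430B probe set 412, 1408 and 120.0. Replicate 2 was the highest on both array types. It stayed under the floor on MOE430A and was above it on MOE430B. These were among the widest spreads of the members, with an SD of 1.15 on the log2(signal + 16) scale on MOE430A and 1.69 on MOE430B, against 0.36 and 0.49 for the median probe set of all.

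Sp7, the zinc finger factor that osteoblasts need, gave 1202, 689 and 1306. Replicates 1 and 3 lay at percentiles 66.1 and 66.5 of their arrays. In replicate 2 it lay only just above the floor of 685, so its count as above the floor rested on that small margin. On that array it was below the highest tryptophan control (757), whose probes match a bacterial gene. Taking that control as the floor left 2 of 9 member genes on MOE430A, Mgp and Runx1, beside 49.1% of all genes.

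Blood cells also express Runx1 and Runx3, and their markers were therefore measured beside these genes. Of 14 measured blood and macrophage genes 5 were above the floor by either array type, beside 54.7% of the 18193 genes with 1 symbol. The pan-leukocyte gene Ptprc gave 56.9, 29.9 and 181, and the receptor adaptor Fcer1g 146, 148 and 164, all below the floor. The macrophage genes Lyz2 (2030 ± 580) and Csf1r (1860 ± 144), the platelet integrin Itga2b (1732 ± 290) and Cd14 (1054 ± 305) were above it. The MOE430A signals of the measured blood genes summed to 11334, 11887 and 10656, an order (replicate 2 highest, replicate 3 lowest) that 1452530_a_at shared and 1452531_at did not. Their part in the Runx values was not tested. In RNA from mixed cells, fewer cells of a type and less RNA per cell cannot be told apart.

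The matrix members came next. Acan, the large chondroitin sulfate proteoglycan of cartilage, gave 579, 549 and 1041, above the floor in replicate 3 alone. Comp, a pentameric protein of cartilage and tendon, gave 512, 758 and 1346. Matn2, a matrilin of loose connective tissue and filaments around cells, gave 539, 1045 and 1524 on probe set 1419442_at and 172, 366 and 338 on 1455978_a_at. For Comp and 1419442_at of Matn2, replicate 1 was below the floor and replicates 2 and 3 were above it. On the second Matn2 probe set, below the floor throughout, replicate 1 was lowest as well. The highest array was 1.89-fold the lowest for Acan, 2.63-fold for Comp and 2.83-fold and 2.13-fold for the Matn2 probe sets.

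The mineralization members spanned the full range of the array. Mgp, the vitamin K-dependent inhibitor of calcification, gave 42311, 53047 and 59863 (51740.3 ± 8849), at percentiles 99.4, 99.4 and 99.7 of its arrays. Its SD on the log2 scale was 0.25, close to the median of 0.24 among probe sets above the floor, and replicate 1 was the lowest. Alpl, which frees phosphate for mineral, gave 704, 254 and 654, and was above the floor by a narrow margin in replicate 1 alone. Ibsp, which seeds mineral in bone, was below the floor on all 3 arrays by both of its probe sets. They came from 1 source sequence and gave 6.91, 27.9 and 20.5 on 1417484_at and 397, 228 and 228 on 1417485_at. At the first, the arrays lay at percentiles 0.168, 3.33 and 1.72. Replicate 1 was the lowest on one and the highest on the other, so the pair gave no common order.

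Genes that work with the members were taken from lists of each role, drawn up with earlier results of these data known, and are given as counts beside the 54.7% of all genes. Of the Runx partners and corepressors 11 of 13 were above the floor. The partner Cbfb gave 6674 ± 529, the coactivator Yap1 9093 ± 1299, Twist2, a bHLH factor that restrains Runx2, 3934 ± 1243, and Smurf1, an enzyme that marks Runx proteins for degradation, gave 9032 ± 2000.3 on MOE430B. Hey1 (193 ± 72.4) and Tle4 were below. Of the osteoblast transcription factors 6 of 11 were above, among them Atf4 (10124 ± 1566), Foxc1 (2132 ± 44.5), Fosl2 (1340.3 ± 142) and Msx1 (1093 ± 210.1). The homeobox genes Dlx5 (163 ± 99.5) and Msx2 (198 ± 111) were below.

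Of 17 listed products of osteoblasts and osteocytes, Bglap, Bglap2 and Spp1 had no named probe set and were not counted. Of the 14 measured, 5 were above the floor. Those were the collagen genes Col1a2 (145435 ± 24758), Col1a1 (106848 ± 26287) and Col5a1 (33296 ± 2909), Sparc (109530.0 ± 10908), which fibroblasts make too, and Smpd3, which counted through an MOE430B probe set. The osteocyte genes Sost (163 ± 10.0) and Dmp1 (173 ± 54.5) were below it on all arrays. The mineralization list, which holds phosphate transporters and the vitamin K enzymes that activate Mgp, was above in 6 of 7 cases. Its genes Enpp1, Ankh and Phospho1 had no named probe set and were not counted. Anxa5 gave 24812 ± 4159, the vitamin K reductase Vkorc1 10553 ± 2904, and the transporters Slc20a2 and Slc20a1 2511 ± 388 and 2427 ± 942. The carboxylase Ggcx, which acts on Mgp itself, gave 825, 1099 and 1263 and was above the floor on all 3 arrays.

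Of the chondrocyte genes 6 of 23 were above the floor. Col11a1 (5107 ± 1858), Col2a1 (4400 ± 810.3), the lubricin gene Prg4 (2965 ± 1268) and Ucma on MOE430B (2339 ± 766) were above. Sox9, the factor that directs cartilage formation and drives Acan, gave 256, 288 and 458, below the floor, and the collagen IX gene Col9a2 gave 32.7 ± 8.11. In the list of aggrecan relatives and the enzymes that cut or build them, 7 of 9 were above. The synthase Chsy1 gave 9572 ± 886 on MOE430B, the protease Adamts1 5450 ± 1955, Adamts9 4571 ± 471 on MOE430B and Vcan, the aggrecan relative of loose connective tissue, 4076 ± 380. Of the tendon genes 3 of 6 were above, with Fmod at 4405 ± 1545 and Tnmd at 1845 ± 229, while Scx counted through an MOE430B probe set and gave 309 ± 73.5 on MOE430A. All 11 measured fibroblast markers were above the floor, with Vim (149376 ± 17104), Col1a2, Sparc and Col1a1 the brightest.

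**Figure D2:**
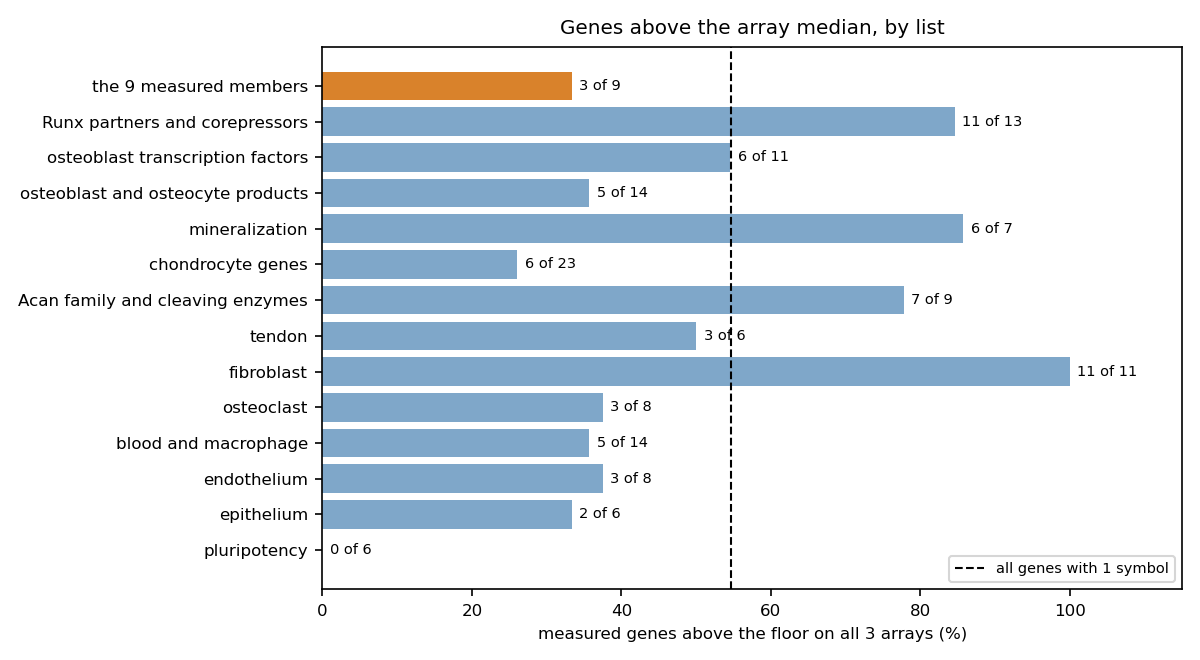
Share of measured genes above the floor on all 3 arrays of a type, in percent, for the 9 measured members (orange) and 13 lists of related genes and cell type markers (blue), with the counts beside each bar. The dashed line marks the 54.7% of all 18193 genes with 1 symbol. The members stood at 3 of 9, below the line, as did most lists, from pluripotency at 0 of 6 to osteoblast transcription factors at 6 of 11. The chondrocyte list was among them at 6 of 23. Above the line were the Runx partner, mineralization, aggrecan family and fibroblast lists, the last at 11 of 11.

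The labels record 1 difference among arrays of a type, the cell number and RNA concentration of replicate 1, which was therefore set against replicates 2 and 3. No member passed limma's test. On MOE430A 6 member probe sets entered it and 0 were called at an adjusted p of 0.05, beside 78 of 11066 probe sets overall (0.705%). At an unadjusted p below 0.05 there were 2 of 6 members and 900 of all (8.13%). On MOE430B 1 member probe set entered and 0 were called, as for all 10594 probe sets (0.0%). At an unadjusted p below 0.05 there were 767 of all (7.24%), the member among them. Of the 15 MOE430A member probe sets, replicate 1 was the lowest array in 8, beside 34.9% of all probe sets, and the highest in 2, beside 32.3%. On MOE430B it was the lowest in 1 of 2, beside 35.3%, and the highest in 0 of 2, beside 33.1%. The spread of replicate 1 itself is not measured in a comparison of 1 array with 2, so limma takes it from the others, with 1 residual degree of freedom. To this it adds the variance pooled over all tested probe sets. The pooled part weighed as 25.6 degrees of freedom on MOE430A and 3.49 on MOE430B. The labels do not say whether the replicates were separate cultures, and a p-value here then reflects no more than the scatter among these samples, possibly technical.

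Of the 7 tested member probe sets, those with the largest log2 differences, none called by limma, were of Matn2, Runx1 on MOE430B and Comp. Among member probe sets that the filter kept out, Runx1 on 1422864_at (-1.78) and Runx3 on MOE430A (-1.31) differed more. Both of these were below the floor on every array. For Matn2 on 1419442_at the log2 difference, replicate 1 minus replicates 2 and 3, was -1.20 ± 0.38 (SE) with an adjusted p of 0.183 in limma. For Comp it was -0.96 ± 0.39 (adjusted p = 0.429 in limma), and for Runx1 on MOE430B -1.12 ± 0.36 (adjusted p = 0.645 in limma). The unadjusted 95% intervals were -1.98 to -0.43, -1.76 to -0.16 and -2.08 to -0.15. In each of these probe sets replicate 1 lay under the floor, so only replicates 2 and 3 carried it past the filter. That choice favours low values in replicate 1, and the intervals do not allow for it. For Mgp the interval ran from -1.17 to 0.34, for Sp7 from -0.48 to 1.15, and for the Runx1 probe sets 1452530_a_at and 1452531_at from -0.60 to 0.98 and from -0.58 to 0.95. Per the instrument records, replicates 1 and 2 were scanned on the same day on MOE430A and used the same fluidics station, unlike replicate 3. Within the shared day, replicate 1 minus replicate 2 was -0.93 for Matn2, -0.55 for Comp, -0.33 for Mgp and 0.79 for Sp7. For Runx1, 1452530_a_at, at -0.16 within the day, had the opposite sign to its value of 0.19 over all arrays. Against replicate 3 alone, Sp7 was at -0.12 and 1452531_at at -0.05, again of opposite sign to their values over all arrays. The MOE430B array of replicate 1 alone ran on another station, and the effects of the 2 cannot be told apart.

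**Figure D3:**
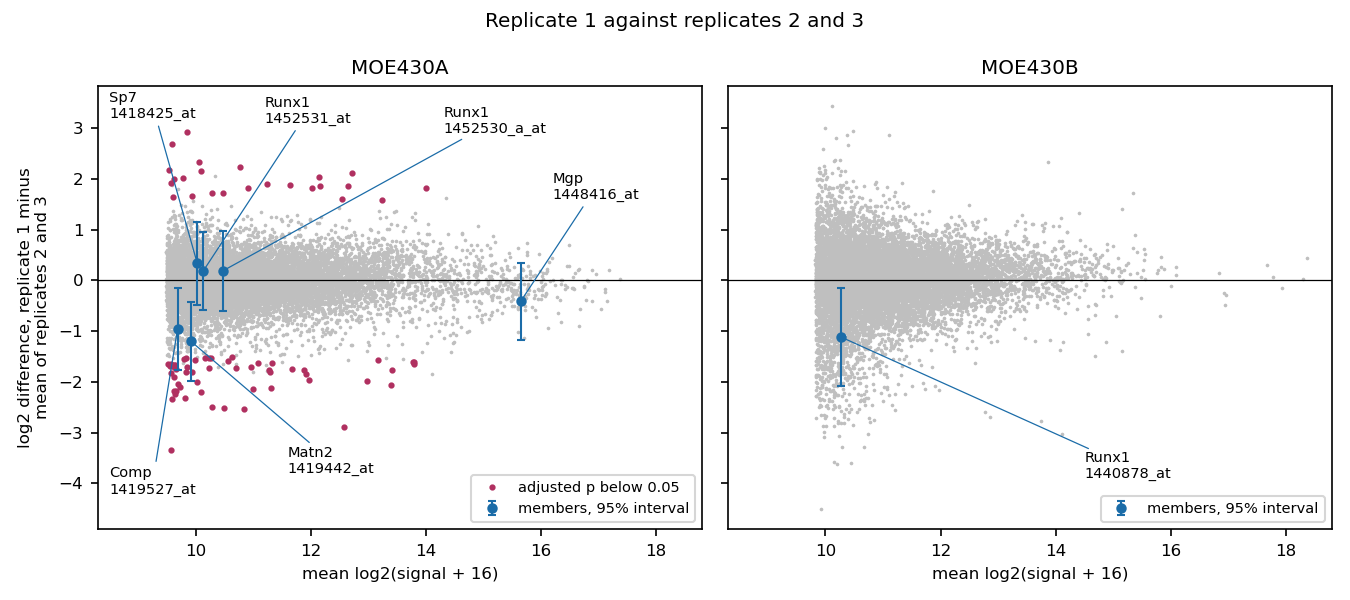
Log2 difference of replicate 1 minus the mean of replicates 2 and 3 (vertical axis) against mean log2(signal + 16) (horizontal axis) for all tested probe sets (grey), those with an adjusted p below 0.05 in limma (red) and the 7 tested member probe sets (blue, with unadjusted 95% intervals). No member is red, and Matn2 and Comp on MOE430A and Runx1 on MOE430B lie below 0 with intervals that do not reach it. In replicate 1 these lay under the floor, so only replicates 2 and 3 carried them past the filter.

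Among the related lists, limma called 3 MOE430A probe sets, all lower in replicate 1 and all of matrix genes. They were 1 of 8 tested in the chondrocyte list and 2 of 8 in the tendon list, the 2 being of 1 gene. Of all MOE430A probe sets 0.705% were called, and 54 of those 78 were lower in replicate 1 too. Without the filter or after quantile normalization, 0 MOE430A probe sets were called, so these 3 calls depend on the processing. Col11a1, a minor collagen of cartilage fibrils, was at 574 in replicate 1, under the floor, against 1528 and 1887 on 1449154_at, at least 2.46-fold lower (adjusted p = 0.0438 in limma). Its brighter probe set gave 2975, 5970.0 and 6376 and was not called (adjusted p = 0.275 in limma). Fmod, the fibromodulin of tendon and cartilage, was called on 2 of its 6 probe sets. On 1456084_x_at it gave 1198 against 3374 and 4121, a log2 difference of -1.63 ± 0.37 (adjusted p = 0.0296 in limma). On 1438966_x_at it gave 418, under the floor, against 1319 and 1177, at least 1.81-fold lower (adjusted p = 0.0417 in limma). The other 4 Fmod probe sets also had replicate 1 lowest, with log2 differences from -0.96 to -1.40 and adjusted p of 0.0800 to 0.383 in limma. Each of the other lists had 0 called probe sets. The MOE430A signals of measured tendon genes summed to 5638, 8595 and 8050.2, those of chondrocyte genes to 14799.7, 19089 and 23341, and those of fibroblast markers to 643946, 737076 and 807769, each lowest in replicate 1 as Comp, Matn2 and Mgp were. Of all 13 lists the sum was lowest in replicate 1 for 7, highest for 3 and between for 3. The mineralization list, at 43475, 40814 and 40808, and the osteoclast and epithelial lists were the 3 highest in replicate 1. Within the fibroblast list replicate 1 was the lowest array for 8 of 11 genes and the highest for Vim (164029, 130581 and 153518) and Thy1 (38911, 35603 and 16217). Their part in the members' values was not tested.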

How the data were processed

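Total RNA of 3 replicates of DR4 fibroblasts was hybridized to Affymetrix MOE430A and MOE430B arrays. The authors deposited linear signal intensities, made with MAS5 per the submitters' processing notes, in a column for each array. No version or scaling setting is given in those notes. The 2% trimmed mean was 1499.8 on each MOE430A array and 1499.7 to 1499.8 on MOE430B, as from scaling to a common target. The 2 tables were not compared. Control probe sets (64 per array) entered the median floor, the tryptophan limit, the trimmed mean and the quantile normalization, and were not themselves tested. An array has no genome build.

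Genes were named from GEO's platform annotation, with symbols updated by gene identifier through RefSeq (GRCm38.p6). Probe sets with 1 symbol numbered 20380 on MOE430A and 14661 on MOE430B, those with several, never named, 691 and 245, and those unnamed here 1555 and 7605. The members and lists were chosen with earlier results of these data known. All members are named by every probe set. Of each list, up to 4 genes of highest mean signal above the floor, up to 2 under it and any called gene are named, by the brightest probe set on MOE430A, or on MOE430B where there is none. Ggcx, Smpd3, Scx, Thy1 and the second probe sets of Col11a1 and Fmod stand outside this rule, chosen with their values known.

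limma 3.58.1 (R 4.3.3; lmFit, eBayes) was run on log2(signal + 16) of probe sets whose mean log2 signal exceeded the mean log2 floor, with Benjamini-Hochberg adjustment over all of them, and was tested on simulated data. That scale understates changes of dim genes. For Col11a1 on 1449154_at and Fmod on 1438966_x_at, where replicate 1 lay under its floor, the floor stood in its place and the fold is a lower bound. These 2 probe sets passed the filter through replicates 2 and 3 alone. The differences and folds of the members use the signals as given, also where replicate 1 lay under the floor. The number of arrays limits the precision.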

Additional observations from a re-analysis of the deposited data

How the results depend on the processing

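On MOE430A 3 member genes were above the floor. The count was 1 with the 75th percentile as the floor and 8 with a fixed signal of 200, and ranged from 3 to 5 when 1 replicate was left out, with 5 without replicate 1. It was 2 both with the tryptophan control as the limit and with all probe sets of a gene required. On MOE430B it was 0, with 1 at a fixed signal of 200 and from 0 to 1 when 1 replicate was left out, the 1 being without replicate 1. Shares of all genes moved as well, to 25.4% at the 75th percentile and 75% at 200 on MOE430A, and to 79.8% at 200 on MOE430B. With a replicate left out, or with all probe sets of a gene required, the share of all genes was not computed.

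No member probe set was called under any of the 5 other settings of limma (pseudocounts 1 and 64, no filter, quantile normalization, an eBayes trend). The 7 tested member probe sets kept the sign of their difference in all 35 such fits, with adjusted p from 0.178 to 0.982. Dropping the filter or adding a trend leaves the difference itself unchanged, and the pseudocounts hardly alter it. The kept sign is therefore little evidence of stability. With replicate 2 or 3 left out, the sign did change for Sp7 and both tested Runx1 probe sets of MOE430A, as given above. Over all MOE430A probe sets the count of 78 went to 0 without the filter, to 0 after quantile normalization and to 164 with an eBayes trend. Without the filter 22626 instead of 11066 probe sets were tested. The pooled variance weighed as 25.6 degrees of freedom in the main fit and 2.41 without the filter. It weighed as 6.02 after quantile normalization and 148 with the trend. The cause of these changes in the count was not tested. The SD of Ibsp on 1417484_at, at the bottom of the array, was 0.48 and rose to 0.98 with a pseudocount of 1. Leaving out replicate 2 or 3 leaves 1 array against 1, which gives values with no test. No paired analysis was possible because the samples that share replicate numbers are the 2 array types, which hold different probe sets and are not compared.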

Other observations

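Markers of 4 other lineages were measured in the same cells, and most were at or under the floor. Their counts stand beside the 54.7% of all genes above it. Of the osteoclast genes, whose cells break down bone, 3 of 8 were above it. The bone protease Ctsk gave 4365 ± 486, Dcstamp 1988 ± 30.1 on MOE430B and the calcineurin-regulated factor Nfatc1 1083 ± 112. The osteoclast enzyme Acp5 (109 ± 13.0) and the calcitonin receptor Calcr (181 ± 83.8) were under it on all 3 arrays. Endothelial genes were above it in 3 of 8 cases, with the receptor Kdr at 1407 ± 199.9, while Tie1 (21.4 ± 4.58) and Pecam1 (141 ± 40.3) were under it on all arrays. Epithelial genes were above it in 2 of 6 cases, with the keratin Krt8 at 1502 ± 391 and the cadherin Cdh1 under it at 50.2 ± 32.0. Of the pluripotency genes 0 of 6 were above it. No probe set of these 4 lists was called by limma in replicate 1 against replicates 2 and 3, among 16 tested. Of these, 3 had an unadjusted p below 0.05, beside 8.13% of all tested probe sets on MOE430A and 7.24% on MOE430B.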
